A study of Mus musculus with 23 samples.

Results

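The muscarinic and nicotinic acetylcholine receptor genes described here were Chrm1, Chrm2, Chrm3, Chrm4, Chrm5, Chrna4, Chrna5, Chrna7 and Chrnb2, taken by symbol from a table of hippocampal RNA sequencing. All 9 were found among its 19733 genes, and all 9 were among the 15985 genes tested. RNA came from the hippocampus of 23 wild-type male C57BL/6J mice, acquired at 6 weeks of age and housed 4 to a cage. The 9 Ctrl mice received the AIN93M control liquid diet, the 7 EtOH mice an ethanol liquid diet, and the 7 EtOH-UA mice an ethanol liquid diet with urolithin A (UA, a gut microbial metabolite of ellagitannins) at 200 mg/kg/day. All groups were gavaged daily with 0.05% CMC-Na, the vehicle in which UA was given, for 16 weeks, and a week of behavioral tests followed. No group received UA without ethanol. Values are FPKM (read fragments corrected for the length of the transcript and the size of the library), so that levels of different genes can be set beside each other. The comparisons ask whether long-term ethanol changes the receptor mRNAs and whether UA alters their level in ethanol-fed mice.

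Acetylcholine reaches the hippocampus mainly through axons from the medial septum and diagonal band, where it takes part in attention, memory encoding and theta rhythm. Muscarinic receptors are G protein-coupled. The products of Chrm1, Chrm3 and Chrm5 act through Gq, phospholipase C and closure of M-type potassium channels, while those of Chrm2 and Chrm4 act through Gi/o, lower cyclic AMP and often reduce transmitter release. Nicotinic receptors are pentameric cation channels. Chrna4 and Chrnb2 encode the subunits of the main high-affinity nicotinic receptor of the brain, Chrna5 an accessory subunit of that receptor, and Chrna7 the subunit of a calcium-permeable homomeric channel.

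In the RefSeq annotation of GRCm38 (mm10) the muscarinic genes lay at chr19:8664005-8683606 (Chrm1), chr6:36387991-36528638 (Chrm2), chr13:9875486-10361062 (Chrm3), chr2:91922189-91929835 (Chrm4) and chr2:112478733-112536361 (Chrm5). The nicotinic genes lay at chr2:181022311-181043579 (Chrna4), chr9:54980827-55011420 (Chrna5), chr7:63098692-63212526 (Chrna7) and chr3:89753448-89764632 (Chrnb2). In the GENCODE annotation Chrm4 and Chrm5 each had a single transcript of 1 exon, whereas the longest coding transcript of Chrna7 had 10 exons. Exons of Chrnb2 shared 1365 of 8380 bases with Adar, a gene on the opposite strand with a mean of 34.7 FPKM, and since the strandedness of the libraries was not stated, reads from that stretch cannot be assigned to either gene. Shorter stretches overlapped annotated genes of the opposite strand in Chrm1 (329 bases with Gm22820) and Chrm2 (142 bases with 9330158H04Rik).

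The set of RefSeq (GRCm38.p6) start sites used here held at least 1 for 8 of the 9 genes, all but Chrm1. The 250 bases before the start are shown for Chrna4, Chrm2 and Chrm4, because Chrna4 varied with Chrm2 and with Chrm4 between mice, as described below. Whether these windows have a part in that variation was not tested. Capitals mark GC boxes (GGGCGG on either strand), the motif bound by Sp1. The windows are chr2:181039178-181039427 on the minus strand, chr6:36387834-36388083 on the plus strand and chr2:91921939-91922188 on the plus strand.
Chrna4: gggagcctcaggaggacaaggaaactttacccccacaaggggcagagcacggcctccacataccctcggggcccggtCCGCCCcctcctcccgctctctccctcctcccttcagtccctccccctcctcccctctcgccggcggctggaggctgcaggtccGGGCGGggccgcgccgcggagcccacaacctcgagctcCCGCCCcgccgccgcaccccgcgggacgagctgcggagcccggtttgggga
Chrm2: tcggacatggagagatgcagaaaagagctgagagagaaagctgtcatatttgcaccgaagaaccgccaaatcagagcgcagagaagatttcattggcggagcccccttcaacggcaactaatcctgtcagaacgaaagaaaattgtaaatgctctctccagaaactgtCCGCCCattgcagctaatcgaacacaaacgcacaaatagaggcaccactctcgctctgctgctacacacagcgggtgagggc
Chrm4: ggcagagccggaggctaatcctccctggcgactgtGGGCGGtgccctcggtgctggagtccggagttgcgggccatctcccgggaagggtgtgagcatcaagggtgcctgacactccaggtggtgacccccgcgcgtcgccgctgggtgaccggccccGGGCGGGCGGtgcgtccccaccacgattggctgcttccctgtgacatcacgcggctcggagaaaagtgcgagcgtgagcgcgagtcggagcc
These windows held 24 CpG dinucleotides in Chrna4, 12 in Chrm2 and 26 in Chrm4, against a median of 6 and an upper quartile of 16 over 32851 windows of the same length. A GC box occurred in 32.7% of those windows, and Chrna4 held 3, Chrm4 held 3, of which 2 overlapped, and Chrm2 held 1. High counts were not limited to the genes shown. Chrna7 held 25 CpG and 1 GC box, and the windows of Chrna5 held 3 and 17 CpG with 0 and 4 GC boxes. Chrm3, Chrm5 and Chrnb2 held 10, 2 and 10 CpG and no GC box. The listed starts of Chrna4 and Chrm5 lay 4.4 and 55.5 kb inside the gene spans given above, so that their windows are not upstream of the whole gene. No window of the 8 genes held a CRE (TGACGTCA, both strands), which 1.55% of all windows did.

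The tissue label was checked against marker lists. CA1 pyramidal neuron markers, led by Mpped1 and Ccn3, summed to between 98.7 and 307 FPKM, CA3 markers, led by Bok and Cpne4, to between 75.8 and 168, and dentate granule cell markers, led by C1ql2 and Stxbp6, to between 41.8 and 136. Markers of cholinergic neurons summed to only 0.25 to 1.13 FPKM, with Chat at 0 in 8 mice and Slc18a3 at 0 in 9, so that the mRNAs of the neurons that supply acetylcholine were close to absent. Markers listed for other regions were present as well. Their sums were 31.1 to 50.1 FPKM for neocortex, 44.9 to 68.2 for striatum and 17.6 to 35.9 for thalamus. In the striatal sum Ppp1r1b (mean 26.8 FPKM) and Pde10a (12.7) weighed most. Every other gene of that list averaged 5.96 FPKM (Rgs9) or less, so the sums do not rank the regions. None of the marker genes was at 0 in all mice. Choroid plexus markers, led by Ttr and Kl, were the most variable, with sums of 7.88 to 2977 FPKM across Ctrl, 70.6 to 5763 across EtOH and 16.02 to 7823 across EtOH-UA mice. In such bulk tissue, fewer cells of a type and less RNA per cell cannot be told apart.

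One EtOH-UA mouse stood apart from the others. Its summed FPKM was 404609, against 327896 to 366930 in the other groups, and it had the lowest CA1 marker sum (98.7 FPKM, with 204 to 289.5 in the rest of its group) and the highest CA3 (168), dentate (136) and choroid plexus (7823) sums of the 23 mice. It was also the lowest of all mice in 6 of the 9 receptor genes. It was kept in the main tests, and values without it are given for part of the results.

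**Figure D1:**
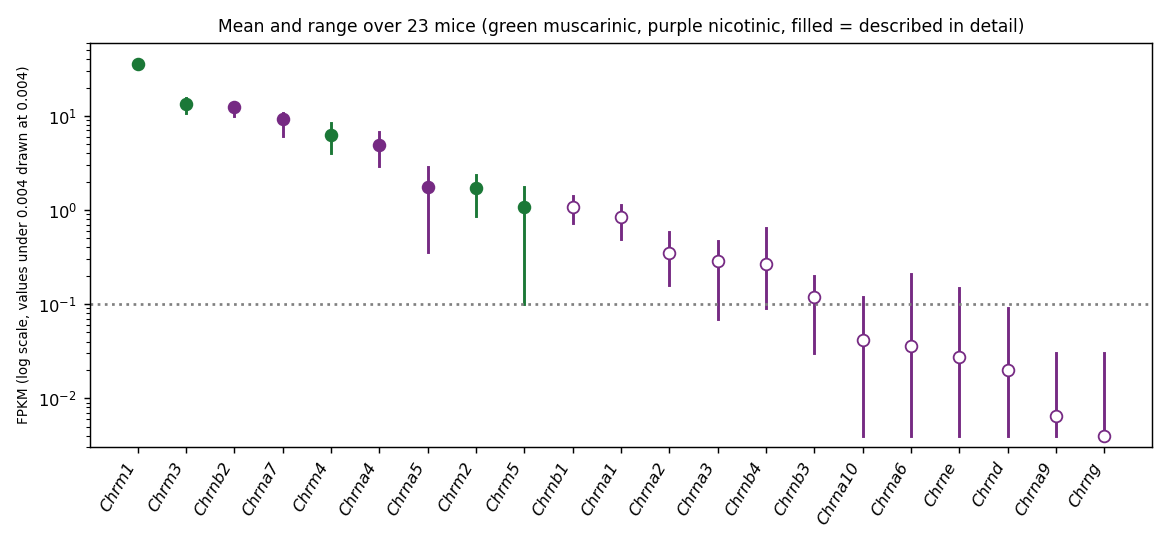
Mean (point) and range (line) of FPKM over 23 mice, on a log axis, for all 21 muscarinic (green) and nicotinic (purple) receptor genes, with filled points for the 9 genes described in detail and the dotted line at 0.1 FPKM, the minimum mean for testing. Chrm1 stands highest at a mean of 35.5 FPKM, and the 9 filled points take the first 9 places.

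The receptor mRNAs spanned a wide range of levels. Chrm1 was the most abundant with a mean of 35.5 ± 2.02 FPKM (SD, n = 23 mice), followed by Chrm3 (13.4 ± 1.21), Chrnb2 (12.3 ± 0.731), Chrna7 (9.27 ± 1.15), Chrm4 (6.23 ± 1.15), Chrna4 (4.87 ± 1.11), Chrna5 (1.77 ± 0.517), Chrm2 (1.73 ± 0.417) and Chrm5 (1.08 ± 0.363). Chrm1 exceeded Chrm3 in 23 of 23 mice, by 1.40 ± 0.12 (mean ± SD of the within-mouse log2 difference). A gap of similar size, 1.45 ± 0.47, separated Chrna4 from Chrna5, again in 23 of 23 mice.

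Some neighbours in this order did not differ beyond their spread. Chrm3 was above Chrnb2 in 16 of 23 mice, by 0.12 ± 0.17 on the log2 scale. Chrna5 was above Chrm2 in 11 of 23 mice, with a mean difference of 0.00 ± 0.46, and this order held in 7 of 9 Ctrl, 1 of 7 EtOH and 3 of 7 EtOH-UA mice. Chrm4 exceeded Chrna4 in 22 of 23 mice and Chrm2 exceeded Chrm5 in 21 of 23.

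Within the families, Chrm1 made up 61.3% ± 2.14 (SD, n = 23) of the summed muscarinic FPKM, and the Gq-coupled genes together 86.3% ± 2.27. That share averaged 85.6% ± 2.35 for Ctrl (n = 9), 86.4% ± 2.51 for EtOH (n = 7) and 87.0% ± 1.96 for EtOH-UA mice (n = 7), a difference smaller than the spread within groups. Among the nicotinic genes, Chrnb2 mRNA stood at 2.64 ± 0.579 times that of Chrna4, its partner subunit, and Chrna5 at 37.1% ± 11.6 of Chrna4. The ratio of Chrnb2 to Chrna4 averaged 2.63 for Ctrl, 2.68 for EtOH and 2.63 for EtOH-UA mice, and single mice ranged from 1.86 to 4.07.

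The other nicotinic subunit genes lay lower. Chrnb1 (1.08 ± 0.218 FPKM) and Chrna1 (0.847 ± 0.164), known from the receptor of skeletal muscle, were the highest of these 12 genes, followed by Chrna2 (0.35 ± 0.118). In 6 of the 12 the mean was below 0.1 FPKM, and Chrng, the fetal muscle subunit, was at 0 in 22 of 23 mice.

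Precision differed between the genes. Low values in the table moved in whole steps for 136 genes with a single transcript, which gave a median of 16.8 fragments per kilobase at 1 FPKM (quartiles 12.5 and 18.0). The estimate is rough, and it is 1 value for all mice. On this estimate Chrm5, on its annotated model of 1599 bases, rested on about 28.9 fragments per mouse, for a counting error of 18.6%, against 33.6% for the coefficient of variation between mice. For Chrna5 the estimate was 51.6 to 72.6 fragments depending on the transcript, and for Chrnb2 717 to 1320. Differences of a few percent were therefore not detectable in Chrm5 and Chrna5 at this depth.

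**Figure D2:**
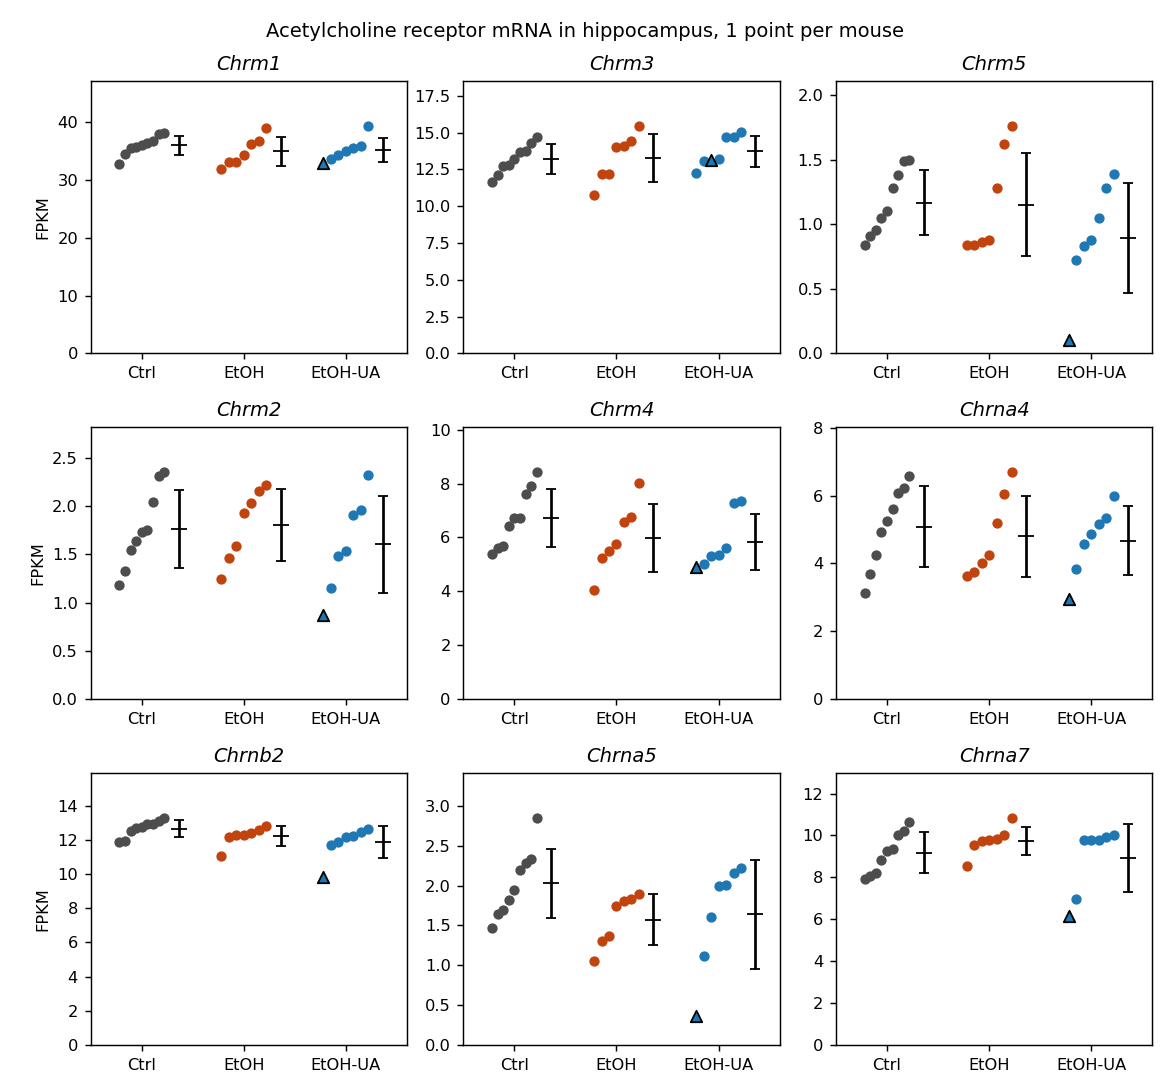
FPKM of each receptor gene by group, 1 point per mouse in ascending order, with mean ± SD beside the points (9 Ctrl, 7 EtOH and 7 EtOH-UA mice) and a triangle for the EtOH-UA mouse with the highest summed FPKM. The groups overlap in every panel, and the triangle is the lowest point of all 23 mice for Chrm2, Chrm5, Chrna4, Chrna5, Chrna7 and Chrnb2.

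None of the 9 receptor genes changed past an adjusted p of 0.05 in any comparison, with limma and Benjamini-Hochberg adjustment over all genes tested. The same held for all 15985 genes, where 0% were called in EtOH against Ctrl, 0% in EtOH-UA against EtOH and 0% in EtOH-UA against Ctrl. At an unadjusted p under 0.05, 0 of the 9 genes passed in EtOH against Ctrl (background 3.05% of all genes), 0 of 9 in EtOH-UA against EtOH (3.27%), and 1 of 9, Chrnb2, in EtOH-UA against Ctrl (3.08%). By the exact permutation test used for single genes, 1 of 9 (Chrna5), 0 of 9 and 1 of 9 (Chrnb2) passed in the same order. Exact p-values were not adjusted here or below, and no share over all genes was computed for them. In a moderated F test of any difference among the groups 0 of 9 passed (0% of all genes at the adjusted and 2.6% at the unadjusted threshold), and the smallest p was that of Chrnb2 at 0.137. These comparisons share samples, Ctrl or EtOH-UA or EtOH mice each entering 2 of them.

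Among the Gq-coupled muscarinic genes, Chrm1, the main postsynaptic muscarinic receptor of pyramidal neurons, was steady. Ctrl mice had 32.9 to 38.2 FPKM (median 36.02), EtOH mice 32.0 to 39.0 (34.4) and EtOH-UA mice 32.9 to 39.3 (35.0), with full overlap of the groups. The log2 difference was -0.04 (95% interval -0.14 to 0.05) for EtOH against Ctrl and 0.01 (-0.09 to 0.11) for EtOH-UA against EtOH, and the fold intervals, 0.909 to 1.04 and 0.941 to 1.08, were the narrowest of the muscarinic genes.

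Chrm3, also expressed by pyramidal neurons, had 11.6 to 14.7 FPKM (median 13.2) among Ctrl, 10.8 to 15.4 (14.0) among EtOH and 12.2 to 15.1 (13.2) among EtOH-UA mice. The EtOH values enclosed those of both other groups. The log2 difference was 0.00 (95% interval -0.14 to 0.14) for EtOH against Ctrl and 0.05 (-0.10 to 0.20) for EtOH-UA against EtOH.

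Chrm5, the rarest of the family, had 0.84 to 1.5 FPKM (median 1.10) among Ctrl, 0.84 to 1.76 (0.88) among EtOH and 0.10 to 1.39 (0.88) among EtOH-UA mice. The lowest 3 EtOH-UA mice, at 0.10 (the mouse that stood apart), 0.72 and 0.83, lay below both other groups, and the rest overlapped with them. With a counting error estimated at about 18.6%, the value of 0.83 cannot be told from the 0.84 at the lower end of both other groups. EtOH-UA mice lay lower than EtOH mice by a log2 difference of -0.48 (SE 0.31, exact permutation p = 0.279) and lower than Ctrl mice by -0.53 (SE 0.29, exact permutation p = 0.121). Without that mouse these differences were -0.13 and -0.18 (exact permutation p = 0.558 and 0.277), so the size of the difference rested on it.

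Of the Gi-coupled genes, Chrm2 encodes the presynaptic autoreceptor of cholinergic terminals and is also found on interneurons. Marker mRNAs of cholinergic neurons were close to absent in this tissue, as given above. Chrm2 had 1.18 to 2.35 FPKM (median 1.73) among Ctrl, 1.24 to 2.22 (1.93) among EtOH and 0.87 to 2.32 (1.53) among EtOH-UA mice. All groups overlapped. The log2 difference was 0.04 (95% interval -0.32 to 0.39) for EtOH against Ctrl and -0.19 (-0.57 to 0.18) for EtOH-UA against EtOH, the latter falling to -0.07 without the mouse that stood apart.

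Chrm4, which lowers transmitter release at excitatory terminals, had 5.39 to 8.42 FPKM (median 6.72) among Ctrl, 4.06 to 8.03 (5.74) among EtOH and 4.89 to 7.34 (5.33) among EtOH-UA mice. In both ethanol-fed groups 5 of 7 mice were below the Ctrl median, and the ranges overlapped. Mean FPKM was 11.0% lower in EtOH than in Ctrl mice (5.99 ± 1.27, n = 7, against 6.72 ± 1.07, n = 9, log2 difference -0.18, exact permutation p = 0.211). In EtOH-UA mice it was 13.4% lower than in Ctrl mice (5.83 ± 1.04, log2 difference -0.21, exact permutation p = 0.0998). Neither difference passed the test. With 1 mouse left out the EtOH against Ctrl difference ranged from -0.25 to -0.09. With the neocortex marker score, which was 2.98 ± 0.177 for Ctrl, 2.89 ± 0.136 for EtOH and 2.87 ± 0.17 for EtOH-UA mice, as a covariate chosen after seeing the data, the Chrm4 differences were -0.06 (SE 0.08) and -0.07 (SE 0.08), and the part of tissue content in them was not tested.

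Of the nicotinic genes, Chrna4 had 3.12 to 6.57 FPKM (median 5.25) among Ctrl, 3.64 to 6.69 (4.25) among EtOH and 2.96 to 6.0 (4.86) among EtOH-UA mice. The ranges overlapped almost fully. The log2 difference was -0.08 (95% interval -0.42 to 0.26) for EtOH against Ctrl and -0.03 (-0.39 to 0.32) for EtOH-UA against EtOH. Without the mouse that stood apart the latter was 0.07 (exact permutation p = 0.664).

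Chrnb2 had 11.9 to 13.3 FPKM (median 12.8) among Ctrl, 11.1 to 12.8 (12.3) among EtOH and 9.86 to 12.7 (12.2) among EtOH-UA mice. All 7 EtOH-UA mice were below the Ctrl median, though the ranges overlapped. Mean FPKM was 6.38% lower in EtOH-UA than in Ctrl mice (11.9 ± 0.942, n = 7, against 12.7 ± 0.491, n = 9), a log2 difference of -0.10 (SE 0.05, exact permutation p = 0.0296, limma adjusted p = 0.999). Without the mouse that stood apart the log2 difference was -0.05, with 12.2 ± 0.353 FPKM in the other 6 EtOH-UA mice and an exact permutation p of 0.0675, and for EtOH-UA against EtOH it was 0.00.

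Chrna5 showed the largest difference between EtOH and Ctrl mice of the 9 genes. Ctrl mice had 1.47 to 2.85 FPKM (median 1.95), EtOH mice 1.06 to 1.90 (1.74) and EtOH-UA mice 0.36 to 2.22 (2.0). All 7 EtOH mice were below the Ctrl median, with overlap of the ranges, whereas 4 of 7 EtOH-UA mice were above it. Mean FPKM was 22.4% lower in EtOH than in Ctrl mice (1.57 ± 0.324, n = 7, against 2.03 ± 0.43, n = 9), a log2 difference of -0.35 (SE 0.24). The exact permutation test over the mice of both groups gave p = 0.0343, not adjusted for the number of tests. By limma, which pools the spread over all groups, p was 0.169 (adjusted p = 0.999).

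The pooled spread of Chrna5 was set largely by the EtOH-UA mouse at 0.36 FPKM, and without that mouse the standard error of the same EtOH against Ctrl difference was 0.15 instead of 0.24 (limma adjusted p = 0.992). EtOH-UA mice differed from EtOH mice by -0.08 with it (exact permutation p = 0.889) and by 0.21 without it (exact permutation p = 0.255), so no difference from EtOH mice was shown in either direction. The choroid plexus marker score, the mean log2(FPKM + 0.1) of its genes, averaged 1.41 ± 2.25 for Ctrl, 3.22 ± 1.33 for EtOH and 2.69 ± 2.35 for EtOH-UA mice and ran opposite to Chrna5 between mice. With this score as a covariate, which was added after seeing the data, the EtOH against Ctrl difference was -0.05 (SE 0.21), and with the CA1 score it was -0.23 (SE 0.11). Whether tissue content accounts for the difference was not tested.

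Chrna7 had 7.93 to 10.6 FPKM (median 9.27) among Ctrl, 8.56 to 10.8 (9.76) among EtOH and 6.14 to 10 (9.79) among EtOH-UA mice. In EtOH 6 of 7 mice were above the Ctrl median, with overlap. The log2 difference was 0.09 (95% interval -0.10 to 0.29, exact permutation p = 0.187) for EtOH against Ctrl, and -0.15 (-0.35 to 0.06, exact permutation p = 0.311) for EtOH-UA against EtOH, or -0.06 without the mouse that stood apart.

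Counted over the 9 genes, the log2 difference was above 0 for 3 and below 0 for 6 in EtOH against Ctrl (median -0.05), 2 and 7 in EtOH-UA against EtOH (median -0.05), and 1 and 8 in EtOH-UA against Ctrl (median -0.11). Over all genes tested 48.6%, 51.2% and 51.2% were above 0 in these comparisons, with medians of 0.00 in each. Without the mouse that stood apart the counts above and below 0 became 5 and 4 in EtOH-UA against EtOH (median 0.01) and 2 and 7 in EtOH-UA against Ctrl (median -0.03). The genes are not independent of each other, since several varied together between mice and share the mouse that was lowest in 6 of them.

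**Figure D3:**
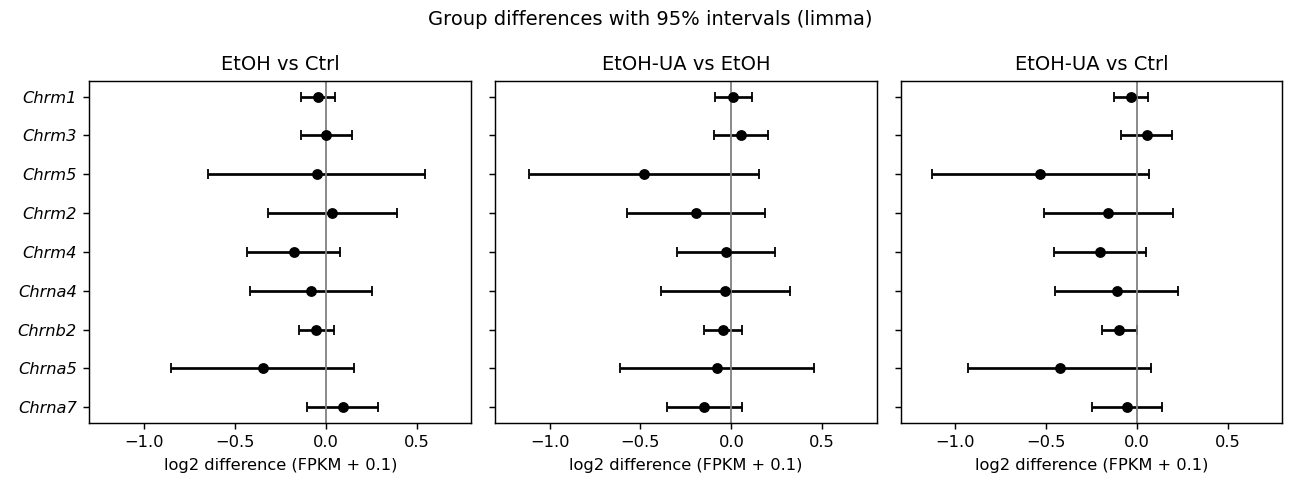
Difference of log2(FPKM + 0.1) between groups for each receptor gene (points) with 95% intervals from limma (bars), in 1 panel per comparison. The interval includes 0 for every gene except Chrnb2 in EtOH-UA against Ctrl, and the widest intervals are those of Chrm5 and Chrna5.

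How the genes varied between mice was examined on deviations from the group means, which removes the group differences. Of 36 pairs, 7 had a Pearson r with an adjusted permutation p under 0.05 (100000 permutations, Benjamini-Hochberg over the 36 pairs), all positive, and 2 of these also passed by Spearman's rho.

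Chrm2 and Chrna4, of which the first is Gi-coupled and the second a channel subunit, varied most closely. Pearson's r was 0.792 and Spearman's rho 0.779 over 23 mice, with permutation p of 1e-05 (the smallest that these permutations can give) and 2e-05. The adjusted p for r was 0.00036. It was 0.725 without the 2 mice farthest from the median, 0.745 without the mouse that stood apart, and 0.715, 0.772 and 0.93 within Ctrl, EtOH and EtOH-UA mice.

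Chrm4 and Chrna4 gave r = 0.662 and rho = 0.705 (permutation p = 0.00064 and 0.00028, adjusted p for r 0.0115), with r = 0.658 without the 2 farthest mice and 0.647 without the mouse that stood apart. Within Ctrl, EtOH and EtOH-UA mice r was 0.753, 0.776 and 0.421. Chrm2 and Chrm4, the 2 Gi-coupled genes, gave a weaker value (r = 0.399, permutation p = 0.0599). Chrm4 and Chrna4 each also followed the neocortex score (r = 0.83 and 0.793), as given below. The part of tissue content in these pairs was not tested.

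In 4 of the other 5 pairs the relation lost strength once the mouse that stood apart was left out. For Chrna5 and Chrnb2 r went from 0.736 to 0.418, for Chrm5 and Chrnb2 from 0.723 to 0.381, for Chrm5 and Chrna7 from 0.573 to 0.211, and for Chrm2 and Chrna5 from 0.536 to 0.297. Chrm4 and Chrnb2 moved the other way, from 0.525 to 0.552. Chrm1 and Chrna4 were negatively related by rank (rho = -0.609, permutation p = 0.00242, r = -0.519), and r was -0.71 without that mouse.

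**Figure D4:**
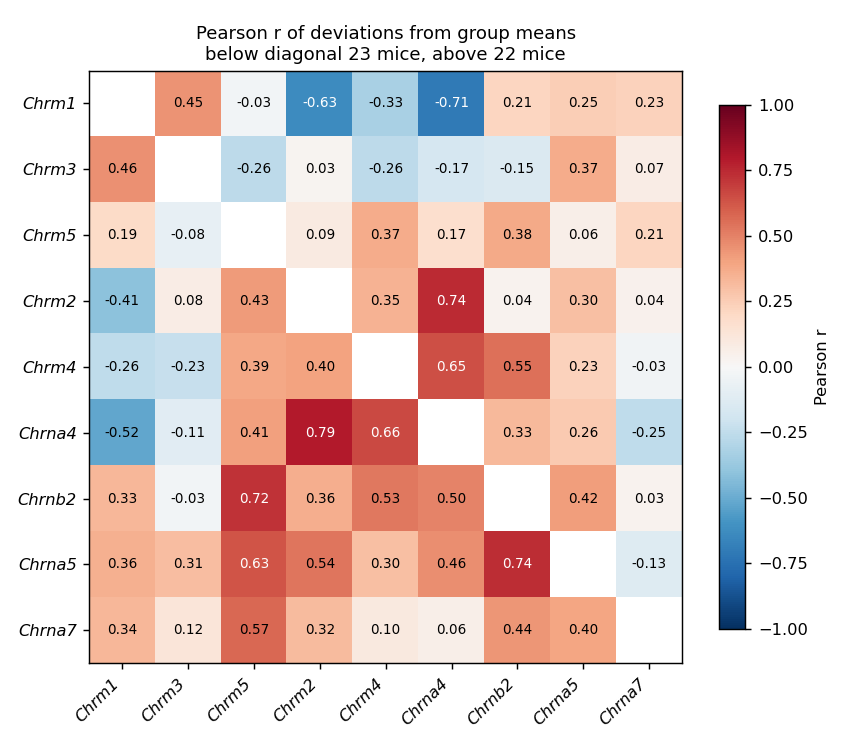
Pearson r of deviations from group means for the 36 pairs of receptor genes, over 23 mice below the diagonal and over 22 mice, without the EtOH-UA mouse with the highest summed FPKM, above it. The pairs of Chrna4 with Chrm2 and Chrm4 keep a high r on both sides of the diagonal, whereas pairs of Chrm5 and Chrna5 with Chrnb2 fade above the diagonal.

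The same deviations were set beside marker scores of 13 cell types and regions, to see how much of the variation went with tissue composition. Of 117 relations 20 had an adjusted permutation p under 0.05 by r, 10 of them positive, and 12 passed by rho as well. The marker scores were related to each other, for example CA1 with CA3 (r = -0.826) and neocortex with dentate granule cells (r = -0.72), so that these relations are not independent.

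Chrm4 followed the markers of inhibitory interneurons, led by Sst and Gad1 (r = 0.852, rho = 0.931, adjusted p for r 0.00039), and of neocortex, led by Rprm and Fezf2 (r = 0.83, rho = 0.864). It ran opposite to dentate granule cell markers (r = -0.749, rho = -0.902). The permutation p for r was 1e-05, 1e-05 and 3e-05, and without the 2 mice farthest from the median of the score r was 0.856, 0.815 and -0.753. All 3 relations were little changed without the mouse that stood apart (0.855, 0.825 and -0.742), and each kept its sign within every group.

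Chrna4 followed the neocortex markers (r = 0.793, rho = 0.707) and interneuron markers (r = 0.59, rho = 0.613) and ran opposite to CA3 markers (r = -0.733, rho = -0.643). The permutation p for r was 3e-05, 0.00293 and 4e-05, and r was 0.828, 0.676 and -0.585 without the 2 farthest mice. Within Ctrl, EtOH and EtOH-UA mice r with the neocortex score was 0.83, 0.868 and 0.689. Chrm2 ran opposite to endothelial markers, led by Ly6c1 and Slco1a4 (r = -0.576, rho = -0.607, permutation p for r 0.00399, r = -0.552 without the 2 farthest mice).

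Chrna5 followed the CA1 markers (r = 0.908, rho = 0.757, adjusted p for r 0.00039) and ran opposite to CA3 (r = -0.845, rho = -0.703) and choroid plexus markers (r = -0.637, rho = -0.694). The permutation p for r was 1e-05, 3e-05 and 0.00028, and r was 0.717, -0.676 and -0.594 without the 2 farthest mice. The mouse that stood apart carried part of this, and without it r was 0.756, -0.687 and -0.664. The relation to CA1 markers had r = 0.657, 0.894 and 0.948 within Ctrl, EtOH and EtOH-UA mice.

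Chrm1 and Chrm3 both ran opposite to striatal markers, led by Ppp1r1b and Pde10a (r = -0.61 and -0.628, rho = -0.671 and -0.681, permutation p for r 0.0018 and 0.0014), with r = -0.577 and -0.55 without the 2 farthest mice. Chrnb2 had r = 0.79 with CA1 markers, but rho was 0.361 and r fell to 0.515 without the mouse that stood apart. For Chrm5, Chrna7 and Chrnb2 no marker list passed by both measures. No receptor gene passed by both measures with the markers of thalamus, astrocytes, oligodendrocytes, microglia or cholinergic neurons.

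**Figure D5:**
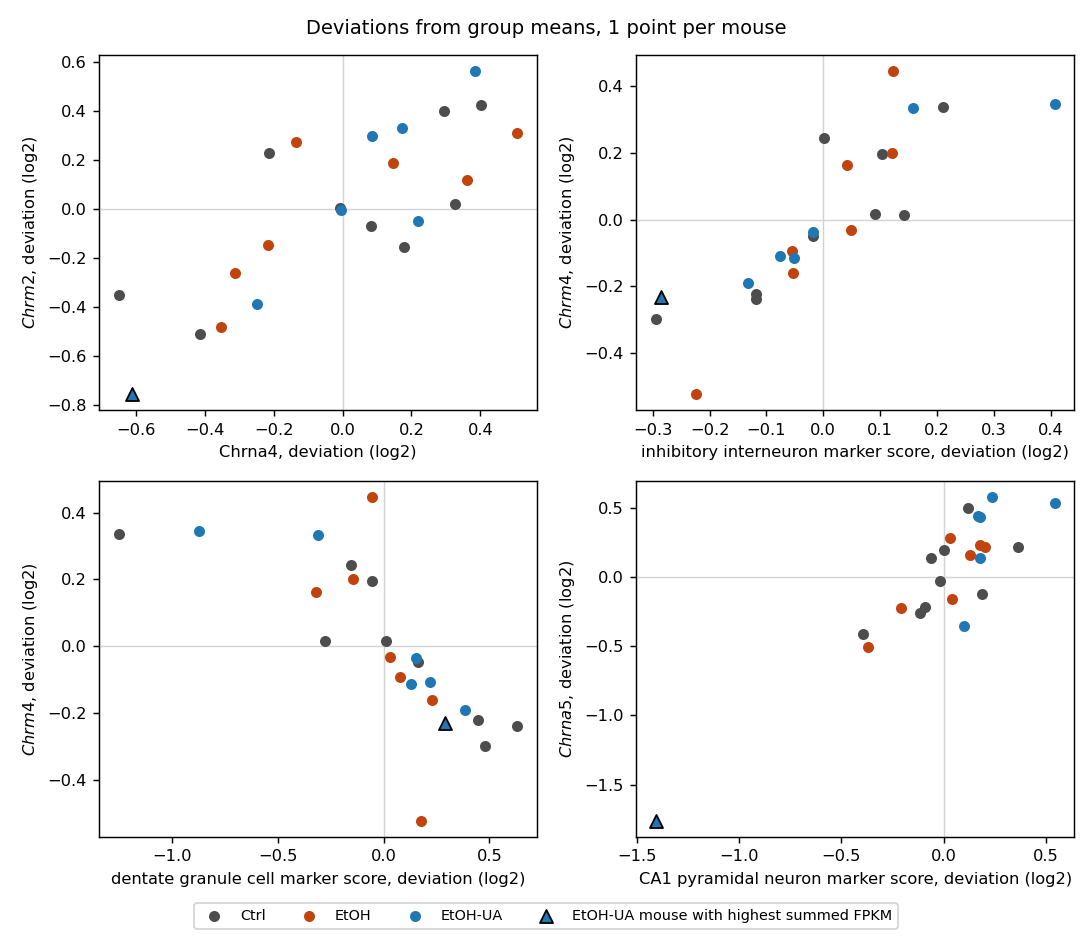
Deviations from group means on the log2 scale, 1 point per mouse, for Chrm2 against Chrna4 and for Chrm4 and Chrna5 against the marker scores of inhibitory interneurons, dentate granule cells and CA1 pyramidal neurons. The triangle marks the EtOH-UA mouse with the highest summed FPKM, which lies far below the other 22 mice in the Chrna5 panel.

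Of the 12903 genes that averaged 1 FPKM or more, those with the most similar pattern over the 23 mice were listed for each receptor gene by Pearson r of the same deviations. For the muscarinic genes these were Cacng8 (r = 0.901) and Lrrn2 (0.863) for Chrm1, Epb41l3 (0.919) and Tenm3 (0.879) for Chrm2, Cpm (0.70) and Fam114a2 (0.684) for Chrm3, Efnb2 (0.871) and Nrsn2 (0.853) for Chrm4, and Pde11a (0.876) and Cntnap2 (0.864) for Chrm5. For the nicotinic genes these were Dpy19l1 (0.947) and Etl4 (0.928) for Chrna4, Gpr161 (0.955) and Pou3f1 (0.931) for Chrna5, Ube4b (0.878) and Akap13 (0.826) for Chrna7, and Pianp (0.863) and Eif2ak4 (0.859) for Chrnb2. Pou3f1 is itself one of the CA1 markers. Each r was picked as the highest of many, and none was tested. Spearman's rho was 0.87 or more for both genes of Chrm1, Chrm2, Chrm4, Chrna4 and Chrna5. For those of Chrm3, Chrm5, Chrna7 and Chrnb2 it ranged from 0.523 (Pianp) to 0.83 (Ube4b). Without the mouse that stood apart the first-named gene kept an r of 0.834 or more for Chrm1, Chrm2, Chrm4, Chrna4, Chrna5 and Chrna7, and had 0.659 for Chrm5.

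The genes around the receptors were described from lists for acetylcholine handling, nicotinic receptor assembly and the muscarinic signaling routes. No gene of any list passed the adjusted threshold in any comparison. Of the other nicotinic subunit genes, 6 of 12 were tested, and the smallest limma p-values were those of Chrna1 in EtOH against Ctrl (log2 difference -0.22, exact permutation p = 0.166) and in EtOH-UA against Ctrl (-0.16, exact permutation p = 0.118), and of Chrna2 in EtOH-UA against EtOH (0.20, exact permutation p = 0.266).

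For synthesis, release and breakdown of acetylcholine, 8 of 10 genes were tested, since Chat, the synthetic enzyme, and Slc18a3, the vesicular transporter, averaged below 0.1 FPKM. The most abundant were the choline transporter-like genes Slc44a1 (24.6 ± 3.13 FPKM) and Slc44a2 (11.5 ± 0.754) and, between them, Ache (21.0 ± 2.25), which encodes acetylcholinesterase. Slc10a4 had the smallest limma p-value in EtOH against Ctrl (log2 difference 0.37, exact permutation p = 0.117). The same gene had it in EtOH-UA against EtOH (-0.29, exact permutation p = 0.219). For EtOH-UA against Ctrl it was Ache (-0.11, exact permutation p = 0.198). Slc10a4 was close to the minimum for testing, at a mean of 0.186 FPKM. Its median was 0.18 FPKM for Ctrl, 0.18 for EtOH and 0.16 for EtOH-UA. The typical EtOH mouse was thus level with the typical Ctrl mouse. The highest values of these groups were 0.25 FPKM (Ctrl), 0.49 (EtOH) and 0.28 (EtOH-UA).

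Of 12 genes for nicotinic receptor chaperones and binding proteins 11 were tested. Ly6h (107 ± 18.5 FPKM), Lynx1 (87.1 ± 7.29) and Ly6e (73.6 ± 9.19), of the Ly6 family of small receptor-binding proteins, were the most abundant. Lypd6, another member of that family, had 7.03 to 9.11 FPKM (median 7.94) in Ctrl and 6.35 to 8.51 (7.41) in EtOH mice, with overlapping ranges. Its log2 difference was -0.15 (SE 0.07, exact permutation p = 0.0276, limma adjusted p = 0.999) in EtOH against Ctrl, where 3.05% of all genes passed at an unadjusted p under 0.05. With the choroid plexus score, which was higher in EtOH mice, as a covariate, the Lypd6 difference was -0.07 (SE 0.06), and the part of tissue content in it was not tested. In EtOH-UA against Ctrl the difference was -0.14 (exact permutation p = 0.0913), or -0.09 without the mouse that stood apart. Unc50 had the smallest p in EtOH-UA against EtOH (0.10, exact permutation p = 0.294).

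All 13 genes of the Gq route were tested, and Prkcb, a protein kinase C gene, was among the most abundant (117 ± 12.9 FPKM). In EtOH-UA against EtOH 12 of 13 had a log2 difference below 0 (median -0.08, against 0.00 over all genes), of which 1 passed at an unadjusted p under 0.05 (3.27% of all genes). Without the mouse that stood apart the count was 7 of 13 and the median 0.00, so the shared direction rested on that mouse. The gene that passed was Kcnq5, which encodes a subunit of M-type potassium channels, with 15.1 to 21.6 FPKM (median 18.5) among Ctrl, 15.7 to 21.0 (18.3) among EtOH and 14.6 to 17.2 (14.9) among EtOH-UA mice.

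The EtOH-UA range of Kcnq5 lay at the lower end of both other ranges and overlapped them. The log2 difference was -0.26 (SE 0.08, exact permutation p = 0.00291, limma adjusted p = 0.90) for EtOH-UA against EtOH and -0.24 (SE 0.07, exact permutation p = 0.00629, limma adjusted p = 0.999) for EtOH-UA against Ctrl, and -0.25 and -0.22 without the mouse that stood apart. In EtOH against Ctrl the smallest p of the Gq list was that of Prkca (0.11, exact permutation p = 0.273).

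All 13 genes of the Gi route were tested as well, led by Gnb1 (178.5 ± 7.71 FPKM), Gnao1 (169.6 ± 8.89) and Adcy1 (102 ± 19.6). The counts above and below 0 were 6 and 7 in every comparison, and without the mouse that stood apart 7 and 6 in EtOH-UA against EtOH and 5 and 8 in EtOH-UA against Ctrl. The smallest limma p-values were those of Kcnj9 in EtOH against Ctrl (log2 difference -0.10, exact permutation p = 0.248), Gnao1 in EtOH-UA against EtOH (-0.07, exact permutation p = 0.146) and Rgs4, which speeds the end of Gi and Gq signals, in EtOH-UA against Ctrl (-0.17, exact permutation p = 0.0913).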

How the data were processed

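Hippocampal RNA of 23 mice was sequenced. Per the methods the authors cleaned the reads with SOAPnuke, aligned them to mm10 with Bowtie2 and quantified them with RSEM, and the deposited values are FPKM to hundredths, with no counts. The submitters' processing notes also name HISAT2 2.1.0, Bowtie2 2.2.5, RSEM 1.2.8, StringTie and DESeq. The methods state poly(A)+ RNA and the labels total RNA, which can shift levels of transcripts without poly(A) tails. Columns were assigned to groups by name. Log2(FPKM + 0.1) of genes that averaged 0.1 FPKM or more was fitted with limma 3.58.1 (R 4.3.3, eBayes with trend, 1 model of 3 groups, no covariate), with Benjamini-Hochberg adjustment over the 15985 genes tested. A log2 difference on this scale understates changes of low genes. For single genes the difference of mean log2 values was set against all 11440 or 3432 relabellings of the mice (two-sided exact permutation test) (scipy 1.17.1), and correlations by 100000 permutations. The code was tested on simulated data. Receptor genes were named by symbol, with the 2 genes most alike and, from each pathway list, the 3 most abundant genes and the smallest p per comparison, and from each marker list used its 2 most abundant genes, and a few genes that this rule names are not reported here. The receptor genes and lists were chosen with earlier results of these data known. Depth was estimated from the steps of low FPKM, because no read totals were given. The labels name no batch or date, and counting errors cover counting only.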

Additional observations from a re-analysis of the deposited data

Results flagged for a closer look

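Of 27 sets of values (9 receptor genes in 3 groups), 4 held a mouse that lay farther from the rest of its group than Dixon's test allows at the 95% level, where chance gives about 1.35. The EtOH-UA mouse with the highest summed FPKM was the lowest of its group for Chrm5, at 0.1 FPKM against 0.72 to 1.39 in the other 6 mice. It was also the lowest for Chrna5, at 0.36 FPKM against 1.12 to 2.22, and for Chrnb2, at 9.86 FPKM against 11.7 to 12.7. A different mouse, of the EtOH group, had 11.07 FPKM of Chrnb2, with the next lowest of its group at 12.2. The first mouse also had the lowest CA1 and the highest CA3, dentate and choroid plexus marker sums of all 23 mice. The part of tissue content in its low receptor values was not tested.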

How the results depend on the processing

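No paired analysis was possible because the columns carry mouse numbers and no replicate numbers. Nor was a pairing of mice described, since the methods state that mice were assigned to the groups at random. Under no alternative did any of the 27 receptor gene differences pass an adjusted p of 0.05 (smallest 0.57), and 10 of the 27 changed sign at least once. In EtOH against Ctrl 0 genes were called by limma (487 at an unadjusted p under 0.05), and 1 with array quality weights. In EtOH-UA against EtOH 1 gene was called with a neocortex covariate, in place of 0 (523 at an unadjusted p under 0.05). Leaving out 1 mouse at a time gave 0 to 1 genes called in each comparison and among any groups, with 1 called without Ctrl mouse 9 in EtOH against Ctrl and without EtOH-UA mouse 6 or 7 in the rest. Receptor genes at an unadjusted p under 0.05 in EtOH against Ctrl numbered 1 with only the 2 groups compared, and 0 to 1 with 1 mouse left out (1 without EtOH mouse 6 or the EtOH-UA mouse that stood apart, mouse 2). In EtOH-UA against Ctrl the count of 1 became 0 with upper-quartile scaling, with only the 2 groups compared and with each covariate (choroid plexus, CA1 or neocortex score), and was 0 to 3 with 1 mouse left out, being 0 in 15 of 23 cases, 2 without EtOH-UA mouse 4 and 3 without EtOH-UA mouse 3. Mouse numbers here are the order of columns in a group.

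Signs changed as follows. In EtOH against Ctrl, Chrm2 was -0.0059 with quantile normalization, and Chrm3 was -0.013 with array quality weights, -0.0066 with the choroid plexus and -0.029 with the neocortex covariate. Chrm5 was 0.11, 0.069 and 0.082 with the choroid plexus, CA1 and neocortex covariates, and Chrna4 0.026 and 0.068 with the choroid plexus and neocortex ones. In EtOH-UA against EtOH, Chrm1 was -0.0085 with upper-quartile scaling and -0.0195 with quantile normalization, Chrna4 was 0.00034 and Chrna5 0.15 with array quality weights, and Chrna5 was 0.0065 with the CA1 covariate. In EtOH-UA against Ctrl, Chrna4 was 0.062 with the neocortex covariate. With 1 mouse left out, Chrm2, Chrm3 and Chrm5 spanned -0.028 to 0.12, -0.034 to 0.052 and -0.15 to 0.011 in EtOH against Ctrl. Chrm1, Chrm4, Chrna4 and Chrna5 spanned -0.015 to 0.038, -0.12 to 0.045, -0.097 to 0.069 and -0.17 to 0.21 in EtOH-UA against EtOH, and Chrna7 -0.087 to 0.029 in EtOH-UA against Ctrl. The cause was not tested. The covariates were chosen after seeing the data.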
